A study of Rattus norvegicus with 6 samples.

Results

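Fibroblasts on a matrix that either of 2 collagenases had degraded were compared with fibroblasts on the native matrix, with both proteases taken as 1 degraded group. The cells were Rat-1, an established rat fibroblast line, and 25000 per well were seeded and lysed on the matrix after 4 h. The native group held 2 libraries from untreated extracellular matrix. The degraded group held 2 libraries from matrix remodelled by matrix metalloproteinase 1 (MMP1) and 2 from matrix remodelled by matrix metalloproteinase 13 (MMP13), so its 4 libraries were not replicates of 1 treatment. All groups shared the cell line, medium with fetal bovine serum, seeding density and time, and the labels call the samples duplicates without naming separate cultures. P-values therefore reflect only how these 6 libraries vary, and part of that variation may be technical. The genes described are those where all 4 degraded libraries lay on 1 side of both native libraries. They numbered 1723 of 17143 genes in the table, with 828 above and 895 below native, and 1283 of them (649 above, 634 below) were high enough to be tested.

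Interstitial collagenases cut native fibrillar collagen, which opens its triple helix to further proteolysis and changes the mechanics and the adhesive sites of the matrix. Fibroblasts read the matrix through integrins and focal adhesions, and respond through immediate early transcription factors, cytoskeletal programmes and the genes that build and remodel matrix. Pooling both degraded matrices asks which transcripts differ from native matrix whichever collagenase was used.

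Transcripts were measured by 3' end sequencing as read counts divided by a size factor, called units here. Recovered reads ran from 161817 to 362122 per library, and the native libraries (219775 and 347618) lay inside the range of the degraded ones. A gene at 0 could hold up to 3 reads, or between 2.21 and 5.04 units depending on the library, which covers counting error only. The 10 fibroblast markers were all tested, and their summed level was 7855 to 8557 units on native and 8302 to 8751 on degraded matrix. Markers of 9 other cell types (58 genes, 54 in the table, 9 at 0 in every library, such as Epcam, Tyrobp, Cldn5 and Mb) took at most 0.0270% of reads per list. The tenocyte list summed to 62.0 and 70.9 units on native and 31.9 to 58.1 on degraded matrix, the cartilage list to 25.7 and 32.8 against 37.2 to 52.6, and the leukocyte list to 11.3 and 20.7 against 21.3 to 30.2. The part of these small sums in the results was not tested. Rn45s, an entry for ribosomal precursor RNA, took 0.347% and 0.293% of reads on native matrix, 0.661% and 0.936% on MMP1-treated and 0.692% and 0.968% on MMP13-treated matrix. Its share did not overlap between native and degraded libraries (exact permutation test, two-sided, p = 0.0667, the smallest p that 4 against 2 libraries allow). It moved in the direction of every group of higher genes below, and its part in them was not tested. In bulk RNA a change in every cell and a change in the share of cells that express a gene cannot be told apart.

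On degraded matrix 38 genes rose and 8 fell (limma on log2(value + 1), Benjamini-Hochberg adjusted p under 0.05). That was 0.522% of the 7284 tested genes in the higher and 0.11% in the lower direction. The genes that rose included the haem oxygenase gene Hmox1 and other antioxidant genes, as well as immediate early and ribosomal protein genes. Among those that fell were Fn1, encoding fibronectin, and Ahnak, encoding a very large scaffold protein of the cell cortex. The median log2 fold was 0.88 over the higher calls and -0.66 over the lower calls, against -0.0046 over all tested genes. Only 12 of the 38 and 2 of the 8 passed 2-fold. Of the 46 calls, 44 lay wholly outside the native range. Separation was the rule for choosing genes and shares its values with the fold, so it is not further evidence. At an unadjusted p under 0.05, 352 genes (4.83%) were higher and 311 (4.27%) lower. The calls depended on which libraries were used. Without native replicate 1, 8 genes were higher and 0 lower, with Rn45s, Hmox1, Rpl7, Mip, Fam65b and Nupr1 the calls that remained, and without native replicate 2 the counts were 52 and 9. Without MMP1 replicate 1 they were 10 and 1, without MMP1 replicate 2 22 and 7, without MMP13 replicate 1 11 and 2, and without MMP13 replicate 2 29 and 11. By edgeR's quasi-likelihood test on recovered reads the counts were 36 higher and 19 lower, and 34 and 8 of these are among the calls given here. Limma without its intensity trend called 0 in each direction, with 518 genes at an unadjusted p under 0.05.

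**Figure D1:**
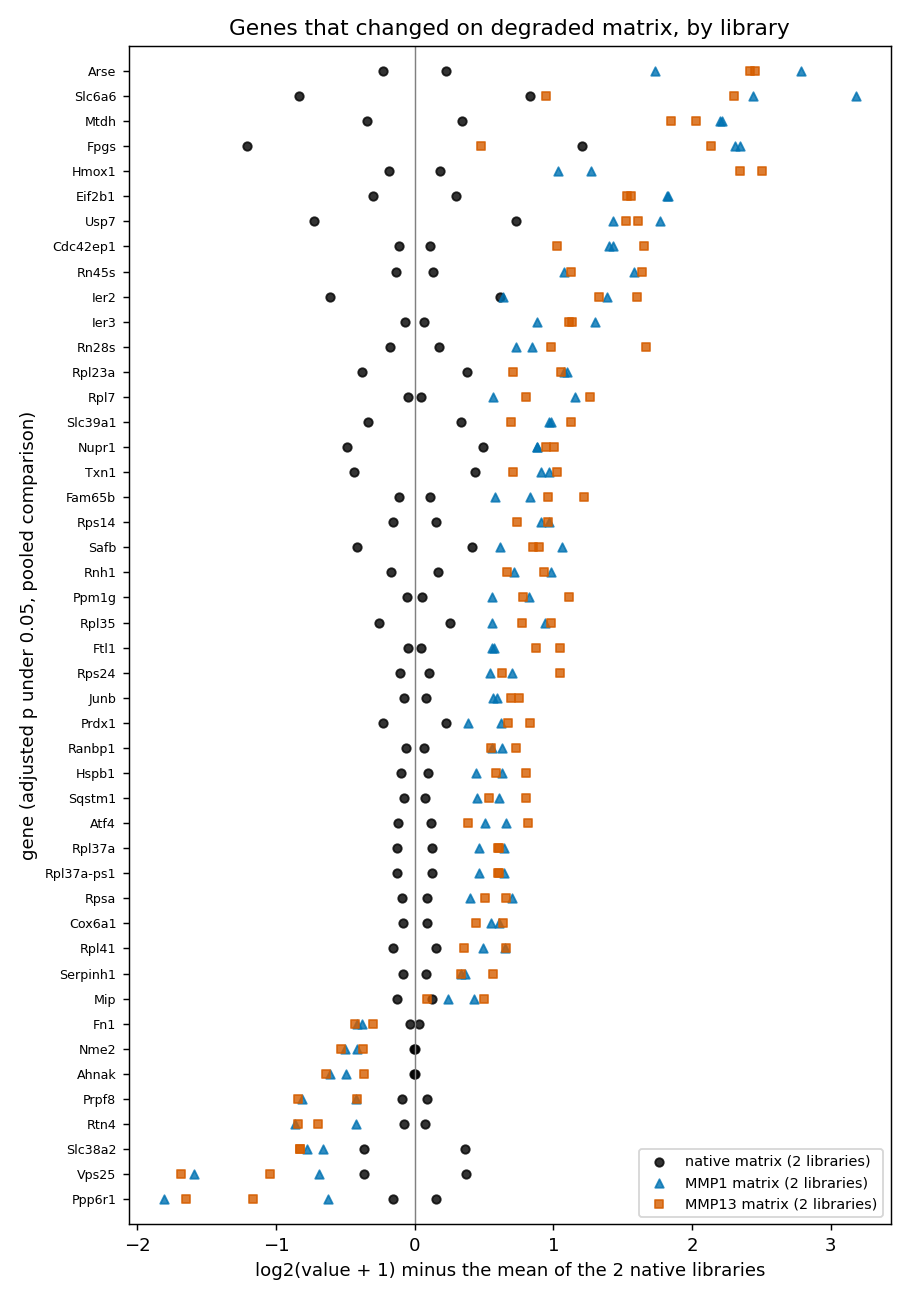
Each row is 1 of the 46 called genes and each point 1 library. The horizontal axis is log2(value + 1) minus the mean of the 2 native libraries (black circles), with MMP1 libraries as blue triangles and MMP13 libraries as orange squares. In 44 rows the 4 degraded points lie on 1 side of both black points, and for Fpgs and Mip they overlap.

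The genes of the oxidative stress and iron list, which holds targets of the transcription factor NRF2 and iron storage genes, gave the largest group of named calls outside the ribosome. Of 29 tested members 5 rose and 0 fell. All 4 degraded libraries lay above native in 11 members (37.9%) and below in 1. Over all tested genes 8.91% lay above and 8.7% below. The median log2 fold of the list was 0.29. Hmox1, which degrades haem and is induced by oxidants, stood at 129 and 167 units on native matrix, 355 and 301 on MMP1-treated and 835 and 749 on MMP13-treated matrix. The lowest degraded library was thus well above the highest native one, and the MMP13 pair lay above the MMP1 pair. Its pooled log2 fold was 1.79 (SE 0.16, adjusted p = 6.3e-19), or 3.79-fold on the unit scale. The fold stayed between 1.55 and 2.04 when any library was left out, with an adjusted p of at most 1.8e-12. With robust variance estimation, which lets a gene keep a spread far above the trend, the adjusted p was 0.47.

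Thioredoxin Txn1, a small protein that reduces disulphides, had 83.9 and 154 units on native, 223 and 215 on MMP1-treated and 233 and 186 on MMP13-treated matrix. The native pair was further apart than the 4 degraded libraries, and the log2 fold of 0.90 (adjusted p = 5.5e-04) was 0.47 without native replicate 1 (adjusted p = 0.996). Prdx1, a peroxiredoxin that removes peroxides with electrons from thioredoxin, had 271 and 371 units on native matrix. Its degraded libraries stood at 413, 489, 566 and 507, all above native (log2 fold 0.63, adjusted p = 0.0010). Without native replicate 1 its log2 fold was 0.40 (adjusted p = 0.75).

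The ferritin light chain gene Ftl1, a subunit of the iron storage shell, went from 96.0 and 89.8 units on native to 139 and 137 with MMP1 and 193 and 171 with MMP13 (log2 fold 0.76, adjusted p = 0.0268). Sqstm1, the autophagy receptor that also frees NRF2 from its inhibitor KEAP1, had 204 and 227 units on native. Its degraded libraries read 329, 294, 376 and 312 units (log2 fold 0.60, adjusted p = 0.0157). Both genes were clear of the native range in every degraded library. In the 6 fits that each left out 1 library, the call of Sqstm1 held in 3 and that of Ftl1 in 1. Srxn1, which repairs over-oxidised peroxiredoxin, was separated at 14.6 and 24.2 units against 27.8, 27.6, 45.6 and 42.0 but did not pass (log2 fold 0.86, adjusted p = 0.39). The superoxide dismutase gene Sod1 (log2 fold 0.52, adjusted p = 0.26) was also separated without passing. The glutathione transferase gene Gstp1 was the 1 member whose degraded libraries lay below native, at 806 and 770 units against 605, 603, 717 and 730 (log2 fold -0.25, adjusted p = 0.39).

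The stretch upstream of Prdx1 is shown because this member holds matches to the core of the antioxidant response element, the site that NRF2 binds with small MAF proteins. The motif searched was TGANNNNGC on both strands, in the window from 250 bases before to 50 bases after each RefSeq start on GRCr8. The letters below are the 250 bases before the start (chr5:135383656-135383905, plus strand), with matches in capitals.
Prdx1: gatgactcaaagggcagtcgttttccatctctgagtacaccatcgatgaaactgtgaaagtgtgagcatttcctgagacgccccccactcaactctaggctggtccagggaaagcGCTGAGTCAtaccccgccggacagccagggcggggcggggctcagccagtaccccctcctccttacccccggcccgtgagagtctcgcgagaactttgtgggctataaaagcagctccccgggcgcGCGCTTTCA
The first match runs from -135 to -127 and the second from -9 to -1. The first also overlaps a match to the AP-1 motif TGANTCA on either strand. Both motifs are short. TGANNNNGC was in 40.5% of 33469 windows and in 11 of the 27 higher calls that have a window (40.7% of genes, against 45% of tested genes with a window). It was also in 4 of the 6 lower calls with a window (66.7%). The windows of Txn1 and Sqstm1, the other called members of the list that have one, held 0 matches. TGANTCA was in 7.33% of windows and in 3 of those 27 genes (11.1%, against 5.56% of tested genes).

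Of 28 tested immediate early genes, which are switched on without new protein synthesis, 3 rose and 0 fell. Degraded libraries lay above native in 6 of them (21.4%, against 8.91% of all tested genes) and below in 0, and the median log2 fold was 0.19. Ier3, a stress-inducible early gene that affects cell survival, had 54.7 and 60.4 units on native, 143 and 107 with MMP1 and 126 and 128 with MMP13. The 4 degraded libraries were close together and about as far from native for either protease (log2 fold 1.11, SE 0.21, adjusted p = 5.5e-04), and the adjusted p was 0.0543 without native replicate 1. Junb, a subunit of the AP-1 transcription factor, had 158 and 177 units on native and 253, 247, 282 and 270 on degraded matrix. Its log2 fold was 0.65 (adjusted p = 0.0157), and the call held in 3 of the 6 fits that left out a library. Ier2, an early gene encoding a nuclear protein, had 14.6 and 35.5 units on native and 61.3, 36.0, 71.3 and 58.8 on degraded matrix. It was the call whose groups came closest without overlapping, and its log2 fold of 1.24 (adjusted p = 0.0284) was 0.62 without native replicate 1 (adjusted p = 0.996). The mRNA-destabilising Zfp36 (log2 fold 0.96, adjusted p = 0.49), the antiproliferative Btg1 (0.60, adjusted p = 0.61) and the repressor Klf10 (1.23, adjusted p = 0.70) were separated without passing.

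The upstream stretch of Ier2 is shown because it held a full cyclic AMP response element, TGACGTCA, the site of CREB and ATF factors. It is the 250 bases before the start at chr19:40399123-40399372 on GRCr8, plus strand, with the match in capitals.
Ier2: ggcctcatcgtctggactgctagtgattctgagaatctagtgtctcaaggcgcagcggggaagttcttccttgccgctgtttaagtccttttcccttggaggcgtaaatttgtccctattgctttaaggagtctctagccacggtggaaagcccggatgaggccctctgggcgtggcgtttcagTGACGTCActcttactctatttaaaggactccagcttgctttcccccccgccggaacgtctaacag
The match runs from -66 to -59. This palindrome, read the same on both strands, was in 1.83% of all windows. It was in 1 of the 27 higher calls with a window (3.7%, against 3.78% of tested genes with a window).

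**Figure D2:**
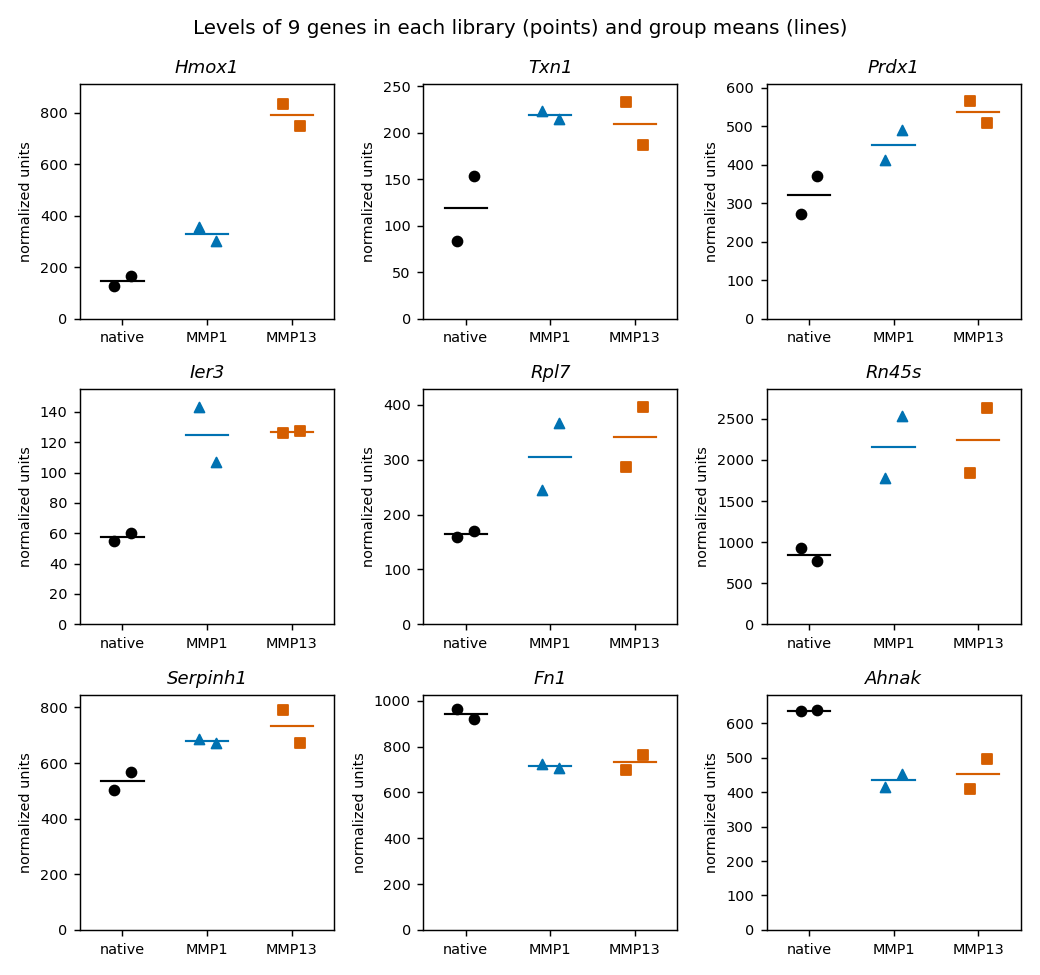
Each panel shows 1 gene, with normalized units on a vertical axis that starts at 0 and the native, MMP1 and MMP13 groups along the horizontal axis. Points are libraries and lines group means. Hmox1 has its MMP13 pair above its MMP1 pair, while for the other 8 genes MMP13 and MMP1 did not differ past the threshold. All degraded points lie above native except for Fn1 and Ahnak, where all lie below.

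Cytosolic ribosomal protein genes, which encode the protein part of the ribosome, contributed 8 of the 38 higher calls. Of 78 tested members 8 rose and 0 fell, and the median log2 fold was 0.20. Degraded libraries lay above native in 24 members (30.8%) and below in 6 (7.69%). Highly expressed genes were separated more often. Of the 1821 tested genes at 29.9 units or more, 12.2% lay above and 12.3% below. Rpl7, of the large subunit, had 159 and 170 units on native, 244 and 367 with MMP1 and 288 and 396 with MMP13. In both degraded pairs replicate 2 was the higher, as it was for Rn45s, yet the lowest degraded library exceeded both native ones. Its log2 fold was 0.95 (SE 0.15, adjusted p = 6.7e-06), and the call held in all 6 fits that left out a library. Rpl41, among the shortest of all proteins, had 636 and 789 units on native and 995, 1110, 1121 and 905 on degraded matrix (log2 fold 0.54, adjusted p = 1.0e-04). Without native replicate 1 its log2 fold was 0.38 (adjusted p = 0.18).

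The other ribosomal calls were Rpl23a (log2 fold 0.99), Rps14 (0.89), Rpl35 (0.81), Rps24 (0.73), Rpl37a (0.58) and Rpsa (0.57), the last also known as the laminin receptor precursor. Rpl35 read 97.2 and 140 units on native against 225, 172, 232 and 200. Rps14, of the small subunit, read 53.5 and 43.0 units against 94.9, 91.2, 94.1 and 80.6, a tight degraded group well clear of native. Without native replicate 1 the log2 fold of Rpl23a was 0.61 (adjusted p = 0.996), and the calls of Rps14, Rps24 and Rpsa held in 1, 2 and 2 of the 6 fits that left out a library. The pseudogene entry Rpl37a-ps1 carried the same reads as Rpl37a and was called with it. Ribosomal protein genes have many processed copies, so how reads were shared among them is uncertain. The members whose degraded libraries lay below native included Rps18 (log2 fold -0.50, adjusted p = 0.12), Rpl10a (-0.46), Rps3 (-0.23), Rps13 (-0.36) and Rpl38 (-0.27), none of which passed. Summed over the list, ribosomal protein genes took 5.57% ± 0.24 of reads on native (SD, n = 2) and 5.93% ± 0.22 on degraded matrix (SD, n = 4). This difference did not exceed what relabelling of libraries gave (exact permutation test, two-sided, p = 0.20).

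Start sites of ribosomal calls are shown because many transcripts of the translation machinery begin with a run of pyrimidines, the 5' terminal oligopyrimidine tract that ties their translation to growth signals. Each line gives 10 bases before and 20 bases from the RefSeq start on GRCr8, with the unbroken run of C and T from the start in capitals.
Rpl37a: cccgttgcgtCTCTTCCTCTTCgggcttgg
Rps24: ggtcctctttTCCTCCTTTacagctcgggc
Rps14: ccgtctctctCTTTCCggtggaggagtctg
Rpl35: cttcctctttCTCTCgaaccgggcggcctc
Rpsa: ccgcgctaccCTggaacgggtccgtacggc
Rpl41: ctcggaagtgacgacaccaagcacgccatt
The runs were 12, 9, 6, 5, 2 and 0 bases long. They lie at chr9:81748081-81748110 (plus), chr16:96507-96536 (plus), chr18:56498250-56498279 (plus), chr3:43165902-43165931 (minus), chr8:128728869-128728898 (plus) and chr7:1563478-1563507 (minus). A run of at least 5 was in 52.4% of the windows of tested ribosomal protein genes, 60% of those separated above native and 48.8% of the rest, against 4.75% of all windows. With the ribosomal protein list left out, it was in 5.12% of 527 windows of genes separated above, 1.78% of 562 windows of genes separated below and 3.49% of 6192 windows of tested genes. Among the calls, ribosomal protein genes included, it was in 17.2% of 29 windows of higher and 16.7% of 6 windows of lower calls. The lower call was Nme2, with a run of 6. These shares describe RefSeq starts and not starts measured in these cells.

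Both ribosomal RNA entries rose. Rn45s read 927 and 768 units on native, 1777 and 2529 for the MMP1 pair and 1844 and 2631 for the MMP13 pair, every degraded library far above native (log2 fold 1.36, SE 0.085, adjusted p = 1.2e-31). Its call held whichever library was left out, and was lost with robust variance estimation (adjusted p = 0.18). Rn28s, named for the large ribosomal RNA, read 77.8 and 99.6 units on native and 159, 146, 282 and 175 on degraded matrix (log2 fold 1.06, adjusted p = 1.0e-04). Rn28s is part of the transcript that Rn45s names, so how reads were shared between them is uncertain.

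Genes that make, fold and cut matrix gave 2 calls. Fn1, encoding the adhesive glycoprotein fibronectin, had 965 and 921 units on native, 723 and 707 with MMP1 and 699 and 766 with MMP13. The degraded libraries were within a narrow band below both native ones, and the log2 fold was -0.38 (SE 0.098, adjusted p = 0.0394). This call held in 1 of the 6 fits that left out a library, the one without MMP13 replicate 2. Of 16 tested members of the structural matrix list 0 rose and 1 fell, with a median log2 fold of 0.047. Sparc (log2 fold 0.17) and Lgals1 (0.14), a matricellular protein and a galectin, were just separated above native, and the sign for Lgals1 turned with quantile scaling. Col1a1, the main chain of type I collagen, had 1829 and 2114 units on native against 2191, 1953, 2277 and 2201 (log2 fold 0.13, adjusted p = 0.61), with overlapping groups and a sign that also turned with quantile scaling.

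Serpinh1, the collagen-specific chaperone HSP47, rose from 503 and 567 units on native to 686 and 673 with MMP1 and 791 and 673 with MMP13. Its degraded libraries were all above native, 3 of them close together (log2 fold 0.40, SE 0.11, adjusted p = 0.0432), and the call held in 2 of the 6 fits that left out a library. Of 15 tested genes of collagen folding and crosslinking 1 rose and 0 fell, degraded libraries lay above native in 5 (33.3%, against 8.91% of all tested genes and 12.2% of those at 29.9 units or more) and below in 0, and the median log2 fold was 0.091. The prolyl hydroxylase subunit P4ha1 had 31.6 and 17.4 units on native and 49.7, 33.6, 43.4 and 45.3 on degraded matrix (log2 fold 0.83, adjusted p = 0.36), a fold that was 0.42 without native replicate 2. Colgalt1 (log2 fold 0.61), which attaches galactose to collagen, and the isomerase Ppib (0.34) were also above native without passing.

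The upstream stretch of Serpinh1 is shown for the heat shock element motif TTCNNGAA, a pair of inverted units bound by heat shock factors, that lies just before its start. It is at chr1:163062977-163063226 on GRCr8, minus strand, with the match in capitals.
Serpinh1: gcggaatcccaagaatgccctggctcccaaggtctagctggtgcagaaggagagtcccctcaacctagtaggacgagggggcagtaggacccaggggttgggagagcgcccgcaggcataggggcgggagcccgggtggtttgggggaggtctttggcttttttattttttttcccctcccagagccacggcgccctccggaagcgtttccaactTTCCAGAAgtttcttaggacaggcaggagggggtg
The match runs from -35 to -28. The same motif was in 8.77% of all windows and in 3 of the 27 higher calls with a window (11.1%, against 7.37% of tested genes), and no match was found in the window of Hspb1.

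Matrix proteolysis had 19 tested members and 0 calls, with degraded libraries above native in 4 (21.1%) and below in 2 (10.5%), against 8.91% and 8.7% of all tested genes. The membrane collagenase Mmp14, which works at the cell surface, read 48.6 and 74.0 units on native and 90.5, 132, 106 and 89.0 on degraded matrix (log2 fold 0.77, adjusted p = 0.10). Its log2 fold was 0.47 without native replicate 1, and it passed without native replicate 2 (1.07, adjusted p = 0.0349) and by DESeq2 (adjusted p = 0.0469). Fibroblasts' own Mmp13 transcript lay below native in every degraded library without passing, at 103 and 95.8 units against 77.4, 63.6, 61.0 and 65.5 (log2 fold -0.57, adjusted p = 0.39). The lysosomal protease Ctsl was also below (-0.30, adjusted p = 0.25), and the protease inhibitor Serpine2 above (0.65, adjusted p = 0.25), at 0.28 without native replicate 1 and 1.01 without native replicate 2.

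Receptors and adhesion genes gave 1 call between them. Among 14 tested integrins and matrix receptors 0 were called. Degraded libraries lay above native in 1 (7.14%, against 8.91% of all tested genes) and below in 3 (21.4%, against 8.7%). Integrin beta 1, Itgb1, the common partner of the collagen and fibronectin receptors, read 649 and 668 units against 570, 511, 479 and 497 (log2 fold -0.36, adjusted p = 0.14), and passed by DESeq2 (adjusted p = 0.0137). The hyaluronan receptor Cd44 read 74.1 and 64.9 units against 48.2, 36.0, 50.7 and 33.6 (log2 fold -0.73, adjusted p = 0.35), and the laminin receptor chain Itga6 had a log2 fold of -1.10 (adjusted p = 0.50). In the focal adhesion list of 20 tested members, Ahnak fell, 5 (25%, against 8.91% of all tested genes) were above native and 2 (10%) below. Ahnak read 635 and 639 units on native, 416 and 453 with MMP1 and 408 and 495 with MMP13. Its native pair was nearly equal and no degraded library came near it (log2 fold -0.53, SE 0.12, adjusted p = 0.0057), yet its call held in 3 of the 6 fits that left out a library. The actin-elongating Vasp (log2 fold 0.59, adjusted p = 0.36), the adaptor Pxn (0.42) and the linker Vcl (0.29) were above native without passing.

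Actin and contractile genes (24 tested) had 0 calls, and 3 lay above and 3 below native (12.5% each, against 8.91% and 8.7% of all tested genes). The severing factor Cfl1 had 1165 and 1211 units against 1068, 1086, 1054 and 1095 (log2 fold -0.14, adjusted p = 0.65), and the tropomyosins split, with Tpm2 below (-0.31) and Tpm1 above (0.26). Smooth muscle actin Acta2 overlapped, at 17.02 and 48.3 units on native against 49.7, 57.6, 59.6 and 42.0 (log2 fold 0.82, adjusted p = 0.30), and passed without native replicate 2 (log2 fold 1.55, adjusted p = 0.0232). Of 18 tested YAP and TGF-beta targets 0 were called. The list held 1 member above (5.56%) and 2 below native (11.1%), against 8.91% and 8.7% of all tested genes. Its log2 fold was above 0 in 12 members and below 0 in 6, with a median of 0.11. The matrix protein Tgfbi had 38.9 and 40.0 units against 68.6, 61.2, 55.9 and 65.5 (log2 fold 0.65, adjusted p = 0.39). The matricellular Cyr61 lay below (-0.65, adjusted p = 0.45), as did Id2, an inhibitor of basic helix-loop-helix factors (-0.98, adjusted p = 0.42).

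Several single calls fell in stress and translation control. Atf4, the transcription factor that translation of upstream reading frames couples to amino acid and ER stress, had 159 and 188 units on native and 247, 274, 305 and 227 on degraded matrix (log2 fold 0.59, adjusted p = 0.0424). The call of Atf4 held in 2 of the 6 fits that left out a library. Of 22 tested ER stress genes Atf4 was the 1 that passed, with a list median of 0.14. Ddit4, an inhibitor of mTOR signalling, read 14.6 and 27.9 units against 32.1, 43.2, 47.1 and 63.8 (log2 fold 1.12, adjusted p = 0.10). Its log2 fold was 0.68 without native replicate 1, and it passed without native replicate 2 (1.57, adjusted p = 0.0334). Nupr1, a stress-induced chromatin protein, had 62.0 and 30.9 units on native and 81.8, 81.6, 89.0 and 85.6 on degraded matrix. Its 4 degraded libraries were far tighter than the native pair, and the log2 fold of 0.93 (adjusted p = 0.0432) was 1.42 without native replicate 1 and 0.44 without native replicate 2 (adjusted p = 0.65). Eif2b1, a subunit of the exchange factor that recharges eIF2, had 8.51 and 5.28 units on native and 26.3, 26.4, 21.3 and 21.8 on degraded matrix. Its 2 groups had the widest gap of any gene at or above the median level of 13.3 units (log2 fold 1.68, adjusted p = 0.0488), but with 7 reads in each native library the call held in 0 of the 6 fits that left out a library.

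The small heat shock protein gene Hspb1 had 147 and 168 units on native and 244, 214, 276 and 237 on degraded matrix (log2 fold 0.62, adjusted p = 0.0403). Among 21 tested heat shock and chaperone genes, 4 (19.0%, against 8.91% of all tested genes) lay above and 2 (9.52%, against 8.7%) below native. The list median was 0.11, and Hspb1 alone passed. Its relative Hspb8 read 35.3 and 30.9 units against 51.1, 70.8, 66.9 and 67.2 (log2 fold 0.92, adjusted p = 0.12). The chaperone Hsp90aa1 lay below native at 229 and 250 units against 166, 174, 158 and 171 (log2 fold -0.51, adjusted p = 0.17). Both passed by DESeq2 (adjusted p = 0.0242 and 0.0126).

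Genes of nutrient and ion transport (19 tested) had 2 higher and 1 lower call, where 0.522% and 0.11% of all tested genes were called. In this list 3 members lay above and 3 below native (15.8% each, against 8.91% and 8.7% of all tested genes). The list median log2 fold was 0.088. Slc39a1, a zinc importer, had 41.3 and 66.4 units on native and 104, 104, 115 and 85.6 on degraded matrix (log2 fold 0.94, adjusted p = 0.0214), and 0.61 without native replicate 1 (adjusted p = 0.996). The taurine transporter Slc6a6 had 1 and 8 reads in the native libraries and 14, 29, 9 and 11 in the degraded ones, or 1.22 and 6.04 units against 20.4, 34.8, 6.62 and 18.5. Its log2 fold of 2.22 (adjusted p = 0.0424) was 1.38 without native replicate 1 (adjusted p = 0.996). Slc38a2, the sodium-coupled importer of neutral amino acids, fell from 297 and 179 units to 134, 145, 129 and 129. Here too the degraded libraries were tight and the native pair wide apart, and the log2 fold of -0.77 (adjusted p = 0.0111) was -0.41 without native replicate 1 (adjusted p = 0.996).

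The remaining genes that fell had varied roles. Nme2, a nucleoside diphosphate kinase, had 833 and 826 units on native and 621, 585, 573 and 641 on degraded matrix (log2 fold -0.46, SE 0.10, adjusted p = 0.0101). Prpf8, the central scaffold of the spliceosome, read 282 and 248 units against 150, 197, 147 and 198 (log2 fold -0.62, adjusted p = 0.0432). Rtn4, which shapes tubules of the endoplasmic reticulum, read 202 and 182 units against 105, 143, 107 and 118 (log2 fold -0.70, adjusted p = 0.0432). Vps25, of the endosomal sorting complex ESCRT-II, had 93.6 and 55.8 units on native and 23.4, 44.4, 34.6 and 21.8 on degraded matrix (log2 fold -1.25, adjusted p = 0.0268). Ppp6r1, a regulatory subunit of protein phosphatase 6, had 62.0 and 77.0 units on native and 19.0, 44.4, 21.3 and 30.2 on degraded matrix (log2 fold -1.31, adjusted p = 0.0214). In these 5 genes every degraded library was below both native ones, and the calls held in 3 (Nme2, Vps25) or 2 (Prpf8, Rtn4, Ppp6r1) of the 6 fits that left out a library. In the endosome and membrane traffic list of 33 tested genes, Vps25 fell, 8 (24.2%, against 8.7% of all tested genes and 12.3% of the highest level class of 1821 genes) lay below native and 3 above, and the median log2 fold was -0.24, the lowest of the 24 lists. The caveolar coat gene Cav1 was among those below, at 113 and 102 units against 83.2, 61.2, 55.9 and 68.9 (log2 fold -0.68, adjusted p = 0.21, and 0.0451 by DESeq2). The log2 fold was above 0 in 10 members and below 0 in 23. Vps4a, another gene of endosomal sorting, was higher without passing (log2 fold 1.12, adjusted p = 0.13).

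Of separated lower genes at or above the median level that did not pass, March2, a ubiquitin ligase of endosomes, had the smallest p. It read 36.5 and 31.7 units on native and 20.4, 4.80, 11.03 and 6.72 on degraded matrix (log2 fold -1.76, adjusted p = 0.055). Flot2, encoding the membrane raft protein flotillin 2, followed at 62.0 and 49.8 units against 23.4, 20.4, 28.7 and 21.8 (log2 fold -1.21, adjusted p = 0.066). Both passed by edgeR (adjusted p = 0.0184 and 0.0201). The widest gaps below native, at or above the median level, were those of Tvp23b, Traf7, Rbm14, Ythdf1 and Myo1e, of which Traf7 passed by edgeR (adjusted p = 0.0379). Ythdf1, a reader of methylated adenosine in mRNA, had 47.4 and 46.0 units on native and 16.1, 25.2, 23.5 and 23.5 on degraded matrix (log2 fold -1.07, adjusted p = 0.19). Myo1e, a membrane-linked myosin, had 51.1 and 58.1 units against 27.7, 26.4, 24.3 and 28.5 (log2 fold -1.00, adjusted p = 0.18).

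Other genes that rose came from varied roles. Fam65b, named Ripor2 in RefSeq and known as an inhibitor of the GTPase RHOA, had 90.0 and 77.0 units on native and 149, 125, 196 and 163 on degraded matrix (log2 fold 0.90, adjusted p = 0.0044). Cdc42ep1, an effector of the GTPase CDC42, had 12.2 and 14.3 units against 36.5, 37.2, 27.9 and 43.7 (log2 fold 1.38, adjusted p = 0.0432). The ribonuclease inhibitor Rnh1 (log2 fold 0.82), the phosphatase Ppm1g (0.82), the chromatin-bound Safb (0.86), Ranbp1 (0.62), a partner of the transport GTPase RAN, and the cytochrome oxidase subunit Cox6a1 (0.56) rose by less than 2-fold. The deubiquitinase Usp7 (log2 fold 1.58) was 0.86 without native replicate 1, and Safb was 0.44, each with an adjusted p of 0.996. The calls of Cdc42ep1, Ppm1g, Ranbp1, Eif2b1 and Arse held in 0 of the 6 fits that left out a library. Mtdh (2 and 6 native reads) and Arse, an arylsulphatase (2 and 2 native reads), had log2 folds of 2.07 and 2.35. By edgeR the calls of Usp7, Mtdh, Arse and Safb did not pass (adjusted p = 0.091, 0.086, 0.084 and 0.054). Arse read 2.43 and 1.51 units on native, both within what 3 reads make, and 8.76, 19.2, 14.7 and 15.1 on degraded matrix. Idh3B, of mitochondrial isocitrate dehydrogenase, and the transcription and splicing factor Snw1 had wide gaps above native without passing (log2 folds 1.19 and 1.35, adjusted p = 0.21 and 0.12).

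Genes at the edge of the rule were described by their values only. Ier2 lay just inside, with its lowest degraded library at 36.0 and its highest native library at 35.5 units. Fpgs, which adds glutamates to folate, and Mip, the lens aquaporin entry, were called but lay outside. Fpgs had 2.43 and 17.4 units on native and 39.4, 38.4, 33.8 and 10.1 on degraded matrix, with MMP13 replicate 2 inside the native range. Its log2 fold of 1.82 (adjusted p = 0.0349) was 0.61 without native replicate 1 and 3.03 without native replicate 2. Mip, at 5819 and 4880 units against 6288, 7175, 5674 and 7543, had a log2 fold of 0.31 (adjusted p = 8.1e-05), which was 0.19 without native replicate 2 (adjusted p = 0.081). With quantile scaling Mip, the highest gene in each library, necessarily showed no difference. Whether the reads of this entry come from the aquaporin transcript was not tested.

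**Figure D3:**
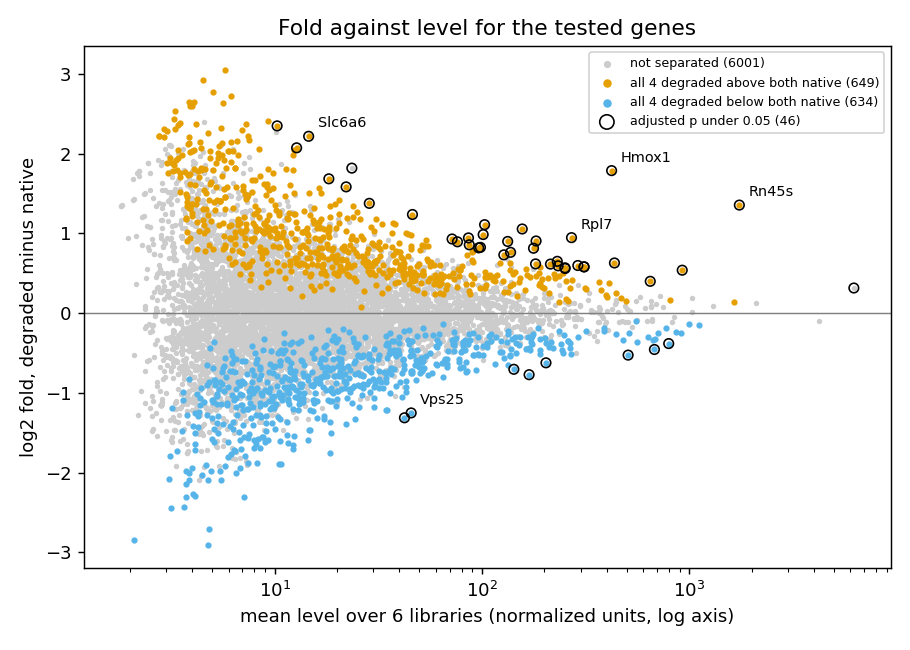
Each point is 1 of the 7284 tested genes, with its mean level over 6 libraries in normalized units on a log axis and its log2 fold, degraded minus native, on the vertical axis. Orange and blue mark the 649 and 634 genes whose degraded libraries lay above or below native, and open circles the 46 calls, most of which lie at high level.

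Across the separated genes, folds were smaller at higher level. The 649 tested genes above native had a median log2 fold of 0.83 (quartiles 0.54 and 1.27), and 260 of them exceeded 2-fold. The 634 below had a median of -0.76 (quartiles -1.09 and -0.50), and 192 exceeded 2-fold. These folds were chosen by the rule and are given as a description. With the tested genes split by level into 4 equal classes of 1821, the median absolute log2 fold of separated genes was 1.45 in the lowest class and 0.49 in the highest. Calls ran the other way, with 31 of the 38 higher and all 8 lower calls in the highest class and 0 in the lowest. Gaps between the nearest native and degraded library were often small. They were under 0.1 on the log2 scale for 153 genes above and 197 below, and at least 0.5 for 142 and 84. A further 179 genes above and 261 below were too low to be tested. In 104 of all 828 genes above native both native libraries were at 0, and in 97 of all 895 below all 4 degraded libraries were at 0, so no fold is given for those.

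**Figure D4:**
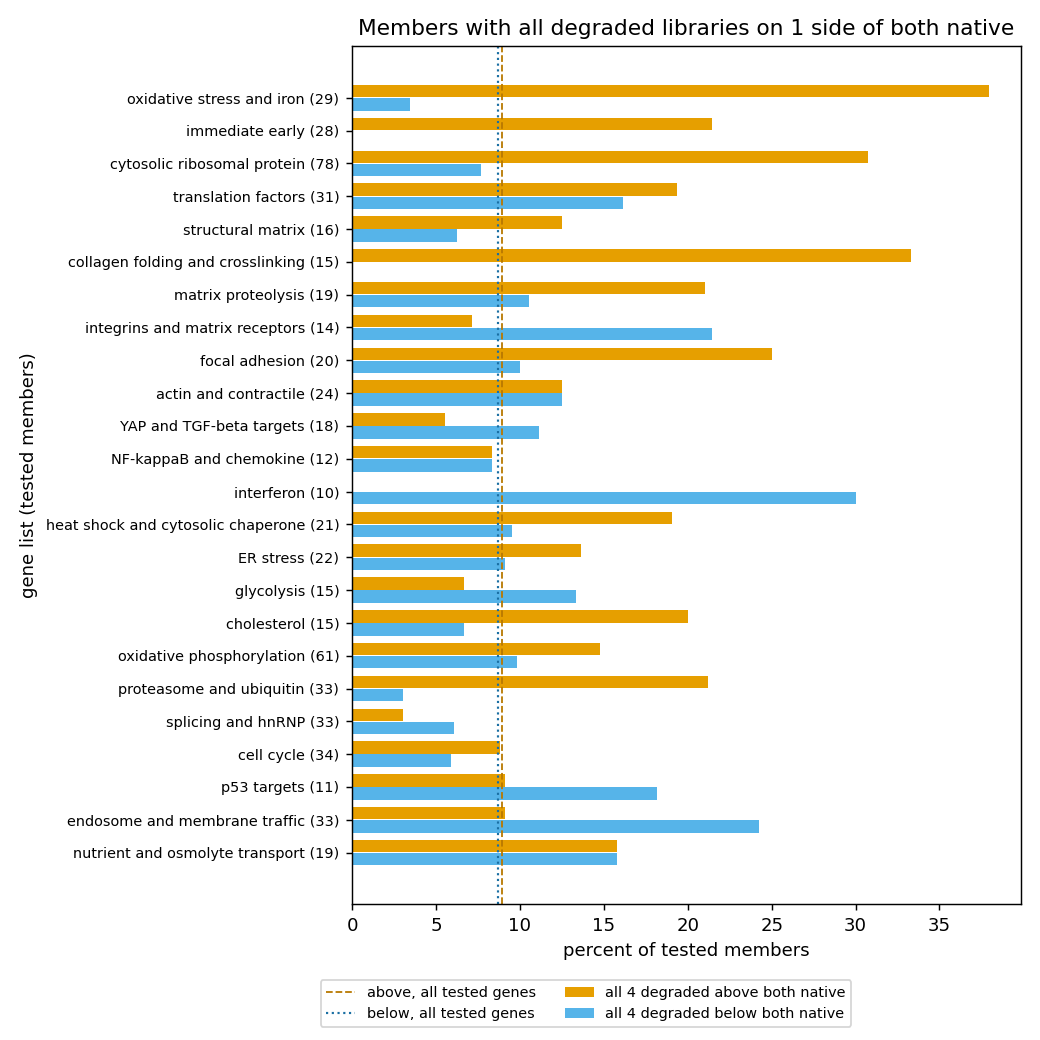
Bars give, for each of the 24 gene lists (tested members in brackets), the percent of tested members whose 4 degraded libraries all lay above (orange) or below (blue) both native libraries, on an axis from 0. The dashed and dotted lines mark the 8.91% and 8.7% of all tested genes, and the longest orange bar is that of oxidative stress and iron (37.9%).

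The remaining lists gave few calls. Oxidative phosphorylation had 1 higher call in 61 tested members, Cox6a1, with 180 and 203 native units and 280, 292, 298 and 260 on degraded matrix (adjusted p = 0.0432). The call of Cox6a1 held in 1 of the 6 fits that left out a library. Degraded libraries lay above native in 9 of the 61 (14.8%, against 8.91% of all tested genes) and below in 6 (9.84%, against 8.7%). The median log2 fold was -0.023. Proteasome and ubiquitin genes had 0 calls in 33, with 7 above (21.2%, against 8.91% of all tested genes) and 1 below. The translation factor list, which does not hold the called gene Eif2b1, had 0 calls in 31, with 6 above (19.4%) and 5 below (16.1%). The initiation factor subunit Eif3d was above at 32.8 and 37.7 units against 59.9, 63.6, 80.2 and 55.4 (log2 fold 0.85, adjusted p = 0.17, and 0.048 by DESeq2), and Eif4g2 below (-0.58, adjusted p = 0.42). NF-kappaB and chemokine genes had 0 calls in 12, with the chemokine Cxcl1 above at 124 and 125 units against 197, 176, 196 and 161 (log2 fold 0.55, adjusted p = 0.17). It passed by DESeq2 (adjusted p = 0.0242). Its list held 1 member above and 1 below native (8.33% each), the lower being the transcription factor subunit Nfkb1 (-0.59, adjusted p = 0.64).

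Interferon genes had 0 calls in 10, with 0 above native (against 8.91% of all tested genes) and 3 below (30%, against 8.7%). The transcription factor Irf1 was one of these, at 51.1 and 46.8 units against 30.7, 32.4, 35.3 and 35.3 (log2 fold -0.54, adjusted p = 0.62). The list median log2 fold was 0.15, with 6 members above 0 and 4 below 0. Cholesterol genes had 0 calls in 15 and a median log2 fold of 0.28, with 3 above (20%) and 1 below (6.67%). The epoxidase gene Sqle read 31.6 and 21.9 units on native and 48.2, 56.4, 32.4 and 48.7 on degraded matrix (log2 fold 0.77, adjusted p = 0.39), and Insig1 and Hmgcs1 were the other members above. Glycolysis had 0 calls in 15, with the glucose transporter Slc2a1 above (0.52, adjusted p = 0.61) and Pfkp (-0.53) and Aldoa (-0.19) below. That was 6.67% above and 13.3% below. Cell cycle genes had 0 calls in 34, with 3 above (8.82%) and 2 below (5.88%). The replication helicase subunit Mcm2 had a log2 fold of 1.046 (adjusted p = 0.41) and the mitotic kinesin Kif11 one of -1.36 (adjusted p = 0.50). Among 11 p53 targets 0 were called, 1 was above (9.09%) and 2 were below (18.2%). The pro-apoptotic Bax read 10.9 and 22.6 units on native and 36.5, 49.2, 34.6 and 30.2 on degraded matrix (log2 fold 1.18, adjusted p = 0.13), and passed without native replicate 2 (adjusted p = 0.0385). The splicing and hnRNP list, which does not hold the called gene Prpf8, had 0 calls in 33, with U2af1 above (0.47) and Srsf1 (-0.41) and Srsf6 (-0.55) below, under the shares of all tested genes. Its member Hnrnpa2b1 did not pass (log2 fold -0.50, adjusted p = 0.12), but passed by edgeR (-0.53, adjusted p = 0.0252). With 1 library left out, the log2 fold of Hnrnpa2b1 ran from -0.91 to -0.077. A gene that did not pass is not shown to be unchanged.

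Whether the 2 proteases differed was tested within the degraded group. The difference itself does not use the native values, while its error was estimated over all 6 libraries. For MMP13 against MMP1, 3 of 7284 genes passed (0.0412%), and 380 had an unadjusted p under 0.05 (5.22%). Among the 46 calls of the pooled comparison Hmox1 was the 1 that differed, higher with MMP13 by a log2 fold of 1.27 (SE 0.16, adjusted p = 2.5e-12). The 2 other genes, Osbpl5 and Fbxo22, were not separated from native as a pooled group. Osbpl5 had 20.7 and 29.4 units on native, 10.2 and 12.0 with MMP1 and 45.6 and 53.7 with MMP13, so pooling set opposite shifts against each other. The shares that follow are descriptions, since the same 4 libraries entered the choice of genes. Of the 649 tested genes above native, 107 (16.5%) had both MMP13 libraries above both MMP1 libraries and 97 (14.9%) had them below, against 15.9% and 15.4% of all tested genes. Among the 634 below native these were 109 (17.2%) and 100 (15.8%). The mean log2 value was higher with MMP13 than with MMP1 in 48.7% of the genes above, 49.7% of the genes below and 49.8% of all tested genes. Both matrices were set against the same native libraries, so their folds are not independent. The log2 folds were 1.09 with MMP1 and 1.13 with MMP13 for Ier3, 0.94 and 0.87 for Txn1, 0.35 and 0.45 for Serpinh1, -0.55 and -0.50 for Ahnak and -0.40 and -0.37 for Fn1. A difference between proteases that did not pass is not shown to be absent, and for Ftl1 the log2 fold was 0.56 with MMP1 and 0.96 with MMP13 (adjusted p of the difference 0.99).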

How the data were processed

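Of the labelled steps, bcl2fastq, TopHat and DESeq were used on the rat build rn5, per the submitters' processing notes, with no versions. The gene counter, annotation release, strand use and collapsing of the unique molecular identifiers (UMIs) were not given in the sources used here. What the authors deposited is a normalized signal, gene counts divided by 1 size factor per library. Dividing a library's values by its lowest nonzero value gave whole numbers for 100% of them (tolerance 0.01 reads), so whole reads were recovered. With UMI collapsing unknown, counting limits may be too narrow.

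Genes with at least 5 units in at least 2 libraries (7284) were tested with limma 3.58.1 in R 4.3.3 on log2(value + 1), with 1 native and 1 degraded coefficient, eBayes with a trend and Benjamini-Hochberg adjustment over all tested genes. Folds understate changes of low genes. The prior held 168 degrees of freedom against 4 residual ones, so a gene's error came mostly from genes of like level. MMP13 against MMP1 used 3 coefficients. Alternatives included edgeR 4.0.16 and DESeq2 1.42.0 on recovered reads, and scripts were tested on simulated counts.

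Members, lists and motifs were chosen with earlier results of these data known. Genes named were all calls, the 10 largest folds per direction among separated calls at or above the median level (filled by smallest p), the 5 widest gaps per direction and up to 3 members per list by p. Further separated list members, Osbpl5, Fbxo22 and the genes whose sequences are printed were chosen after their values were seen, and not every gene the rule selects is printed. Names with LOC or RGD numbers (710) were not named. Symbols matched RefSeq (GRCr8) for 97.4% of genes, and 33 of 46 calls had a promoter window. Sequences are from RefSeq on GRCr8. The 24 lists and 9 marker lists entered no set test.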

Additional observations from a re-analysis of the deposited data

Results flagged for a closer look

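In Hmox1 the MMP13 libraries lay above the MMP1 libraries, a log2 fold of 1.27 (adjusted p = 2.5e-12 by limma). This rests on 2 libraries per protease, and the labels do not name separate cultures. The difference was not tested with robust variance estimation or without the trend. Among the 4 degraded libraries of Rpl23a, MMP13 replicate 2 stood apart at 99.1 units. For Serpinh1, MMP13 replicate 1 stood apart at 791 units. A gap of this size arises by chance in about 1 of 20 groups of 4, and 46 groups were examined.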

How the results depend on the processing

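The count of higher genes was 18 with a pseudocount of 0.5, 20 with no filter, 24 with quantile scaling, 19 with TMM factors and 0 without the trend. Leaving out 1 library gave 8 to 52. The count of lower genes was 4 with a pseudocount of 0.5, 4 with no filter, 0 without the trend, 19 by edgeR and 24 by DESeq2, and 0 to 11 with a library left out. DESeq2 adjusted over 1141 genes and called 37 higher and 24 lower, of which 28 and 6 are among the calls given here. Separated genes numbered 394 above and 420 below with the stricter filter (at least 10 in 4 libraries) and 142 and 84 with a gap of at least 0.5. With a library left out they numbered 839 to 1618 above and 805 to 1622 below, since fewer libraries are easier to separate. For MMP13 against MMP1 the count ran from 1 to 27 with a degraded library left out, and was 27 without MMP13 replicate 1 and 1 without MMP13 replicate 2. The Rn45s share difference kept its direction, from 0.443 to 0.546 percentage points.

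Calls of 3 genes (Hmox1, Rn45s and Rpl7) held without each library in turn, 9 held in 4 or 5 of these fits, 9 in 3, 20 in 1 or 2 and 5 in 0. Over all alternatives the adjusted p of Hmox1 ran from 2.2e-36 to 0.64. The sign turned with quantile scaling for Col1a1 (-0.16) and Lgals1 (-0.22), without native replicate 2 for Srsf9 (-0.15, and 1.54 without native replicate 1) and without native replicate 1 for Stat2 (-0.38, and 2.10 without native replicate 2). The cause was not tested. Other scalings moved the median of all genes by less than 0.1. With a replicate block 35 genes were higher, 8 lower, and 2 differed between MMP13 and MMP1. Same-numbered libraries did not deviate together (r between -0.072 and 0.0059 over genes). Counting error in low genes brings r towards 0, so this cannot show whether the numbers pair the libraries.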
